A study of Homo sapiens with 9 samples.

Results

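The genes described here encode the subunits of the cytosolic chaperonin TRiC (also called CCT) and of the mitochondrial chaperonin, measured as mRNA in undifferentiated Caco-2 cells (uCaco-2). They were chosen by symbol, and all 10 were found among the 60591 symbols of the count table. TCP1, CCT2, CCT3, CCT4, CCT5, CCT6A, CCT7 and CCT8 are the 8 TRiC subunit genes, and HSPD1 and HSPE1 are the 2 genes of the mitochondrial chaperonin. The experiment asked how chemical activators of hypoxia-inducible factor (HIF) signalling change expression in an intestinal epithelial model. Caco-2 is a human colon adenocarcinoma line, so the cells are tumour cells of 1 line, used here while still proliferating. For 24 h, Control cells received fresh medium, CoCl2 cells received 300 μM cobalt (II) chloride, and OD cells received 5 μM of an oxyquinoline derivative. DMSO, the solvent of the OD stock, was added at 0.5% to the Control and CoCl2 media, and its level in the OD medium is not stated beyond the stock it came from, so a difference in solvent between OD and Control cannot be told apart from the compound. Each group had 3 biological replicates, so that p-values measure the spread between cultures of this line.

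Chaperonins are barrel-shaped protein machines that enclose an unfolded polypeptide and let it fold in isolation, using ATP. TRiC is built from 8 different but related subunits in each of its stacked rings, and it is best known for folding actin and tubulin. HSPD1 (HSP60) forms the barrel of the mitochondrial matrix and HSPE1 (HSP10) is its lid. Both mitochondrial genes and several TRiC genes are textbook targets of the heat-shock factor HSF1, and mitochondrial chaperonins are also known to rise when proteins misfold in the matrix.

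All 10 genes passed the filter on low counts, as did 15944 of the 60591 symbols. Total counts ranged from 15998136 to 18298190 in Control, from 16286502 to 24209427 with CoCl2 and from 16387054 to 19623776 with OD. The 10 genes together took 0.690% to 0.692% of all counts in Control, 0.491% to 0.498% with CoCl2 and 0.420% to 0.430% with OD. The composition scaling differed between groups, with TMM factors of 1.11 to 1.12 in Control, 0.770 to 0.795 with CoCl2 and 1.14 to 1.15 with OD. The scaling touches every level and fold change below, which are given in CPM, counts brought to a common library total by that scaling. The summed level of 9 intestinal epithelial markers was 11582 to 12083 CPM before that scaling in Control, 9755 to 10456 with CoCl2 and 11392 to 11873 with OD, with only CDX1 at 0 in all 9 libraries. The sum comes mostly from KRT8 and KRT18, and VIL1 (villin, of the brush border) fell from 613 ± 18.3 CPM in Control to 112 ± 6.28 with CoCl2 (log2 fold change -2.45, adjusted p = 1.24e-51) and stood at 454 ± 8.08 with OD. Fibroblast markers summed to 20.1 to 24.6 in Control, 8.27 to 9.58 with CoCl2 and 32.2 to 33.7 with OD, leukocyte markers to 40.7 to 48.0 and endothelial markers to 1.86 to 3.97 across the 9 libraries. The part of these markers in the chaperonin results was not tested. In bulk RNA, fewer cells that express a gene and less RNA per cell cannot be told apart.

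HSPD1 and HSPE1 lie head to head on chromosome 2 (GRCh38), HSPD1 on the minus strand at chr2:197486584-197516737 and HSPE1 on the plus strand at chr2:197500140-197503449. In the RefSeq promoter table (GRCh38.p14, 250 bases before to 50 after each start) HSPD1 has starts at 197500274 and 197499840, which are 105 and 539 bases from the HSPE1 start at 197500379. TCP1 lies on the minus strand at chr6:159778498-159789703 and CCT7 on the plus strand at chr2:73233420-73253021. A window is shown for each of these 4 genes, to which the results below return. For HSPD1 it is the window of the start at 197499840, and that of the other start is not shown. No window was tested against the changes in level. Capitals mark heat-shock element letters (TTCNNGAA or GAANNTTC, as a run in HSPD1) and, in the HSPE1 window, the palindrome that holds ACGTG, the core of the hypoxia response element, on both strands.
HSPD1, chr2:197499791-197500090, minus strand: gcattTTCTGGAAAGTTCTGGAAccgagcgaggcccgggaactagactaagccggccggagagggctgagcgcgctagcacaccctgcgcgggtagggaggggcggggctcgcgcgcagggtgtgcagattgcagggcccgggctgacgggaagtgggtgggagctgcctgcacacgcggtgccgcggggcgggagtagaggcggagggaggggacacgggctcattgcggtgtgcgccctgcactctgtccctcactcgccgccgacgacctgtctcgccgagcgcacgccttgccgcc
HSPE1, chr2:197500129-197500428, plus strand: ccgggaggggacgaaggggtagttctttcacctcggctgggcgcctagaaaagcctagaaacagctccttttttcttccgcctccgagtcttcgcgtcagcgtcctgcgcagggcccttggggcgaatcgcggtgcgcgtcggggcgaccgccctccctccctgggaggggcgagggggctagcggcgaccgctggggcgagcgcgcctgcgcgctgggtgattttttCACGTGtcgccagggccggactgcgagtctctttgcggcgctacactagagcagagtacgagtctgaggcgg
TCP1, chr6:159789553-159789852, minus strand: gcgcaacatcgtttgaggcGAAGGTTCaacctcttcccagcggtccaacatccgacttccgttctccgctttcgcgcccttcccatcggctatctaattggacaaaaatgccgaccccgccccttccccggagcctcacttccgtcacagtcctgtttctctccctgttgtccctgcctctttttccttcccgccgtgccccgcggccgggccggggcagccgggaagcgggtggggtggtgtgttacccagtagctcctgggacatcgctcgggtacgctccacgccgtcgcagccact
CCT7, chr2:73234058-73234357, plus strand: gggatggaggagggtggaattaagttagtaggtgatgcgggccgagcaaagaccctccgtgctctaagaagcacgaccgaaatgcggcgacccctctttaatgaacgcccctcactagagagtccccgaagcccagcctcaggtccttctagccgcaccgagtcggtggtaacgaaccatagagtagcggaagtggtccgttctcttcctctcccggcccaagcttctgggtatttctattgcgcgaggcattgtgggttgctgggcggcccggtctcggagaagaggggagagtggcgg

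The HSPD1 window opens with a run of 4 alternating heat-shock units (TTC or GAA, each pair 2 bases apart) at chr2:197500068-197500085, which begins 245 bases before the start at 197499840 and lies outside the exons and introns of the MANE transcript, the reference transcript of the gene. A run of at least 3 such units in a row, searched on both strands, was present in 172 of 35116 promoter windows (0.490%), and this was 1 of the 12 windows that 9 of the chaperonin genes have. The shorter GAANNTTC, which the run contains, was found in 3 of the 12 windows, those of TCP1, CCT2 and HSPD1, against 6.77% of all windows. TTCNNGAA, also contained in the run, was found in 2 of the 12, those of CCT4 and HSPD1, against 7.74%. ACGTG was found in 2 of the 12 against 21.4% of all windows, and both matches are the same CACGTG at chr2:197500357-197500362, where the second HSPD1 window and the HSPE1 window overlap. The CCT7 window held none of these letters. A match is a string of letters in a window, and binding was not measured.

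Counts per kilobase allow levels to be set between genes, and on CPM per kilobase of the MANE transcript HSPD1 was the highest of the 10 in every group, at 787 in Control, 521 with CoCl2 and 443 with OD. HSPE1 was the lowest in every group over its whole transcript length, at 152, 77.0 and 69.4. HSPE1 shares 192 of its 557 transcript bases (34.5%) on the same strand with the readthrough gene HSPE1-MOB4, which is listed with 0 counts in all 9 libraries. How the counting treated reads that fit both genes, or that fit HSPE1 and a pseudogene copy, is not given in the sources used here. Per kilobase not shared, HSPE1 stood at 232 CPM in Control, 117 with CoCl2 and 106 with OD, which in Control is above CCT5, CCT6A, TCP1 and CCT4.

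The subunits of TRiC are assembled in equal numbers, but their transcripts were not equally abundant. In Control, CCT7 led at 386 CPM per kilobase, followed by CCT3 at 294, CCT2 at 262 and CCT8 at 236. CCT5 (219) and CCT6A (213) overlapped between libraries, and TCP1 (193) and CCT4 (170) were the lowest. With CoCl2 the order was different, with CCT3 at 376 and TCP1 at 375 overlapping at the top, above CCT7 at 317. With OD, CCT7 led again at 273, CCT3 (170) and CCT8 (168) overlapped, and CCT5 (123), TCP1 (119) and CCT6A (118) overlapped. CCT4 was the lowest TRiC gene in all 3 groups, at 170, 161 and 110.

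**Figure D1:**
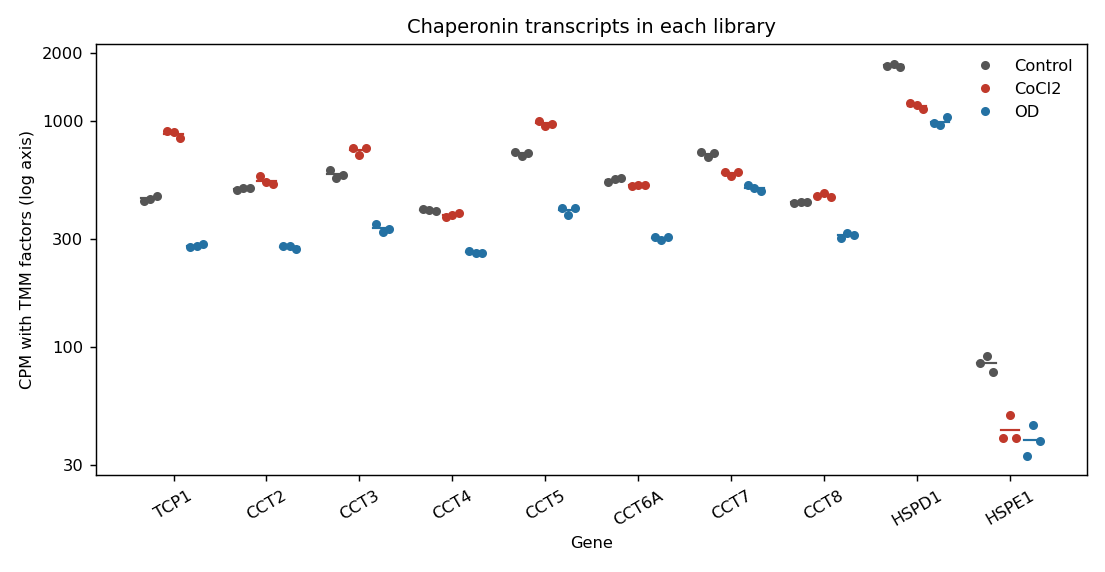
Level of each chaperonin gene in each of the 9 libraries, in CPM on a log axis, with 1 point per library and a bar at the group mean of 3. The OD points lie below the Control points for all 10 genes, whereas the CoCl2 points of TCP1 lie above Control and those of HSPD1 and HSPE1 below it.

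The first comparison asked what CoCl2 did to chaperonin transcripts. Of the TRiC genes TCP1, CCT3, CCT5, CCT2 and CCT8 rose, CCT7 and CCT6A fell and CCT4 missed the threshold, and both mitochondrial genes, HSPE1 and HSPD1, fell. In edgeR's quasi-likelihood fit, adjusted by Benjamini-Hochberg over all genes, 5 of the 10 were higher against 40.4% of all genes tested, and 4 were lower against 42.8%. Together 9 of the 10 passed, against 83.2% of all genes, so that a change as such was no more common among them. The libraries of both groups did not overlap for any of the 10 genes, nor for 83.4% of all genes. The median log2 fold change was 0.013 over the 10 genes and -0.049 over all genes tested, whose median size of change was 0.86. None of the 10 reached the study's size threshold of 1 on the log2 scale, by edgeR or by DESeq2, against 19.9% of all genes higher and 23.4% lower, although 5 were higher and 4 lower at an unadjusted p under 0.05 by edgeR.

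TCP1, the alpha subunit of TRiC, stood at 443, 454 and 468 CPM in the Control libraries and at 904, 894 and 846 with CoCl2. Every CoCl2 library was well above every Control library, and the log2 fold change was 0.95 (SE 0.039, adjusted p = 4.79e-32), a 1.94-fold rise. CCT5, the epsilon subunit, stood at 733, 703 and 725 CPM in Control and at 1001, 956 and 972 with CoCl2. Its log2 fold change of 0.44 (SE 0.039, adjusted p = 5.33e-16) was the next in size among the rises. CCT3, the gamma subunit, stood at 604, 559 and 579 CPM in Control and at 762, 706 and 761 with CoCl2, a log2 fold change of 0.36 (SE 0.040, adjusted p = 4.33e-12).

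CCT2, the beta subunit, stood at 496, 505 and 505 CPM in Control and at 570, 538 and 527 with CoCl2, and CCT8, the theta subunit, at 432, 440 and 440 against 466, 481 and 461. The groups were separate but close, with log2 fold changes of 0.12 (adjusted p = 0.00461) for CCT2 and 0.10 (adjusted p = 0.0157) for CCT8. Neither passed with upper-quartile factors (0.02, adjusted p = 0.655 for CCT2, and 0.00037, adjusted p = 0.993 for CCT8) or without a filter (adjusted p = 0.345 and 0.533), and CCT8 did not with at least 10 counts in every library (adjusted p = 0.0784). CCT4, the delta subunit, stood at 407, 402 and 401 CPM against 375, 385 and 390, with a log2 fold change of -0.07 (SE 0.039, adjusted p = 0.0704). It passed as lower with upper-quartile factors (-0.17, adjusted p = 5.31e-05), without a filter (0.00274), with at least 10 counts in every library (0.0115), on its own 6 libraries (0.0429; DESeq2 0.0407), after thinning (0.0334), with the replicate block (0.0439) and with library size alone (-0.58). CCT6A, the zeta subunit, stood at 539, 555 and 557 CPM against 518, 521 and 519, with a log2 fold change of -0.08 (adjusted p = 0.0398) that missed the threshold with RLE factors (-0.03, adjusted p = 0.433), in DESeq2 on 9 libraries (-0.07, adjusted p = 0.0513), when the counts of its pseudogene rows were added (-0.06, adjusted p = 0.151) and when Control replicate 2 or 3 or any 1 CoCl2 replicate was left out (-0.08 in each, adjusted p from 0.0656 to 0.0922). CCT7, the eta subunit, stood at 731, 691 and 720 CPM in Control and at 592, 571 and 595 with CoCl2. It was the TRiC gene that fell most, with a log2 fold change of -0.28 (SE 0.039, adjusted p = 1.52e-09).

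HSPD1 stood at 1763, 1799 and 1737 CPM in Control and at 1200, 1179 and 1126 with CoCl2. The barrel gene of the mitochondrial chaperonin thus lay lower in every CoCl2 library, with a log2 fold change of -0.60 (SE 0.039, adjusted p = 9.81e-22), or 0.662 of Control. Its lid gene HSPE1 stood at 85.0, 90.9 and 77.7 CPM in Control and at 39.3, 49.8 and 39.5 with CoCl2, and fell by 0.99 on the log2 scale (SE 0.13, adjusted p = 0.000156), or to 0.502 of Control. HSPE1 was the least precise of the 10, with an SE of 0.13 against 0.038 to 0.040 for the others, and 632 to 1855 counts in these 6 libraries.

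The direction depended on the scaling for some of these genes. With library size alone, in place of the composition scaling, the median of all genes moved from -0.05 to -0.55, TCP1 stayed higher with CoCl2 at 0.45, CCT2 (-0.39), CCT3 (-0.15) and CCT8 (-0.41) turned lower, and CCT5 turned to -0.07 without passing the test. HSPD1 and HSPE1 were lower under every scaling tried. Heat-shock genes took 4.19% to 4.52% of all counts with CoCl2, 1.29% to 1.32% in Control and 0.747% to 0.777% with OD, and leaving them out of the library size, an alternative chosen after seeing the data, also put CCT2, CCT3, CCT5 and CCT8 below 0.

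**Figure D2:**
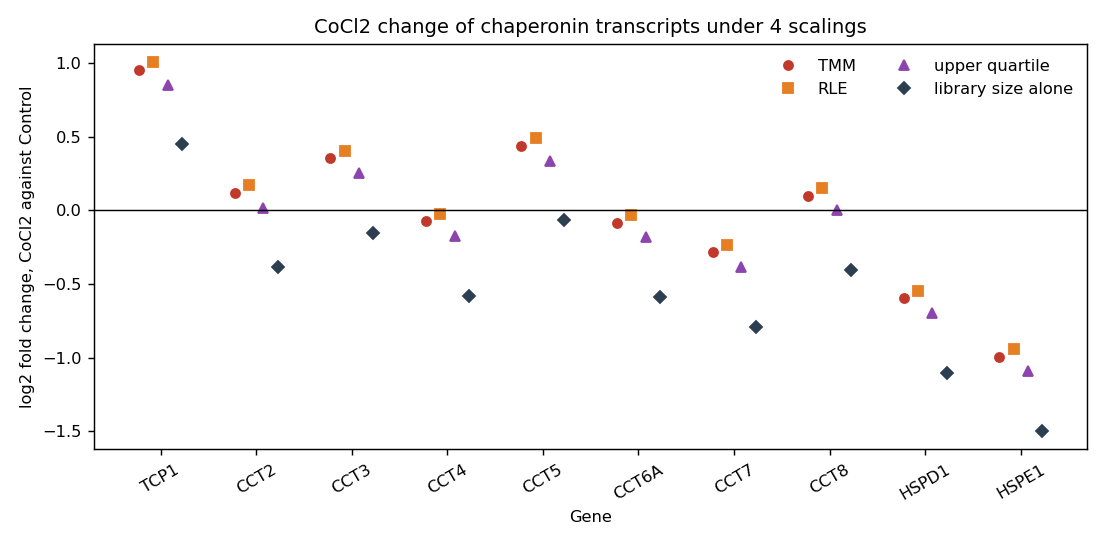
Log2 fold change of each chaperonin gene with CoCl2 against Control under each way of scaling the libraries, 1 point per scaling. TCP1 is above 0 and HSPD1 and HSPE1 below 0 under each, whereas CCT2, CCT3, CCT5 and CCT8 lie below 0 with library size alone.

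The second comparison asked the same of OD. The OD effect ran in 1 direction: all 10 chaperonin transcripts fell, and 0 rose by edgeR, by DESeq2 or at an unadjusted p under 0.05. Among all genes tested 33.3% were lower and 32.3% higher at the same threshold, 65.6% in either direction. The median log2 fold change was -0.81 over the 10 genes, between -1.13 and -0.49, against -0.010 over all genes, whose median size of change was 0.38. The Control and OD libraries did not overlap for any of the 10, nor for 68% of all genes. HSPE1 was the 1 gene past the size threshold of 1, against 4.16% of all genes lower and 9.09% higher by that rule. All 10 were lower under every alternative tried, library size alone included.

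With OD, CCT2 stood at 280, 279 and 271 CPM and CCT6A at 306, 299 and 308, below the Control libraries given above. These were the largest TRiC falls, each with a log2 fold change of -0.86 (adjusted p = 1.34e-28 for CCT2 and 4.21e-29 for CCT6A). CCT5 stood at 414, 385 and 414 CPM (-0.83, adjusted p = 5.89e-28) and CCT3 at 349, 324 and 333 (-0.79, adjusted p = 3.92e-26). TCP1 stood at 276, 280 and 286 CPM, so that the gene that rose most with CoCl2 fell with OD, by 0.70 on the log2 scale (adjusted p = 5.96e-24). CCT4 stood at 265, 259 and 262 CPM (-0.62, adjusted p = 3.41e-22).

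CCT7 stood at 520, 503 and 491 CPM with OD and CCT8 at 304, 319 and 313. They fell least of the 10, with log2 fold changes of -0.50 (adjusted p = 6.58e-18) and -0.49 (adjusted p = 1.99e-17). HSPD1 stood at 978, 965 and 1039 CPM, 0.563 of Control, with a log2 fold change of -0.83 (SE 0.039, adjusted p = 5.65e-28). HSPE1 stood at 32.9, 45.1 and 38.1 CPM, 0.457 of Control, with a log2 fold change of -1.13 (SE 0.13, adjusted p = 8.86e-05). In each group the library numbered 2 held the highest HSPE1 level.

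**Figure D3:**
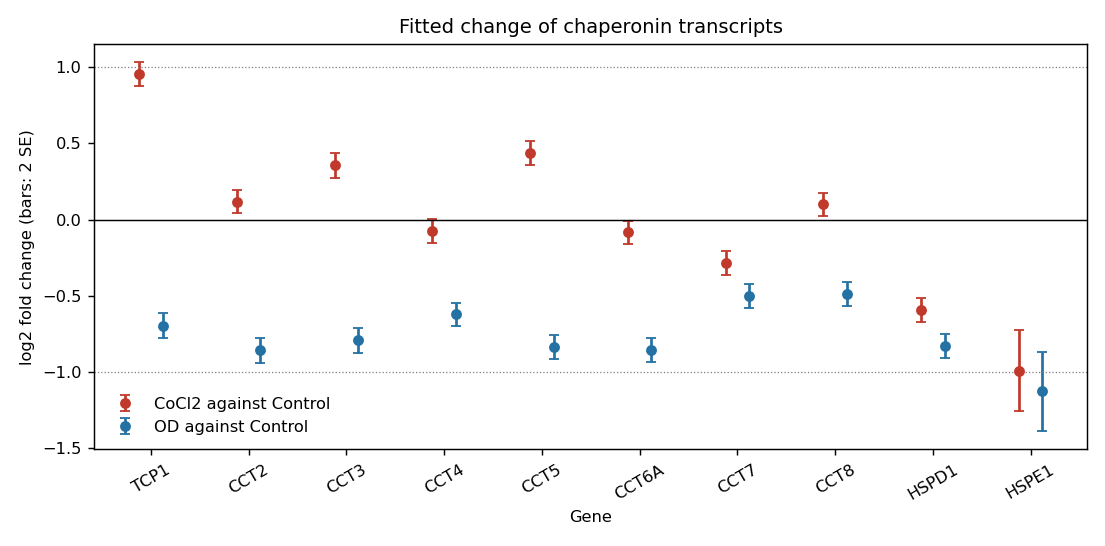
Log2 fold change of each chaperonin gene with CoCl2 (red) and with OD (blue) against the same 3 Control libraries, with bars of 2 SE and dotted lines at the size threshold of 1. The OD values are all below 0, and the CoCl2 values run from -0.99 for HSPE1 to 0.95 for TCP1, of which those of CCT2, CCT3, CCT5 and CCT8 fall below 0 with library size alone.

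Both of these comparisons share the Control libraries, so the treatments were also set against each other directly. At 300 μM CoCl2 and 5 μM OD the doses differ, and the values describe these exposures. By edgeR, 9 of the 10 genes were higher with CoCl2 than with OD, against 40.2% of all genes higher, 43.2% lower and 83.5% in either direction. HSPE1 did not pass (0.14, SE 0.14, adjusted p = 0.400), but did when OD replicate 2 was left out (0.26, adjusted p = 0.00979) and with the replicate number as a block (0.15, SE 0.060, adjusted p = 0.0200). The libraries of 9 genes did not overlap, nor did those of 83.8% of all genes. The median was 0.68 over the 10 genes and -0.054 over all genes. Under library size alone the median of all genes was -0.60, and CCT7, HSPD1 and HSPE1 turned lower with CoCl2 (-0.33, -0.31 and -0.41). CCT4 (0.0025, adjusted p = 0.952) and CCT8 (0.041, adjusted p = 0.297) did not pass under that scaling. TCP1 differed most, 3.14-fold (1.65 on the log2 scale, SE 0.040, adjusted p = 2.60e-44), followed by CCT5 (1.27, adjusted p = 2.32e-38) and CCT3 (1.15, adjusted p = 3.20e-35). These 3 passed the size threshold, against 17.5% of all genes higher and 23.8% lower by that rule, and TCP1 alone passed it with library size alone. CCT2 (0.98), CCT6A (0.77), CCT8 (0.59) and CCT4 (0.55) lay between, and CCT7 (0.22, adjusted p = 1.33e-06) and HSPD1 (0.23, adjusted p = 2.74e-07) differed least among those that passed.

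Shares within the chaperonin do not depend on the scaling of the libraries. Of the counts of the 8 TRiC genes, TCP1 took 10.4% ± 0.281 (SD, n = 3) in Control, 17.3% ± 0.527 with CoCl2 and 10.5% ± 0.262 with OD. CCT7 took 16.4% ± 0.318, 11.5% ± 0.225 and 18.8% ± 0.438. TCP1 thus held a larger part of the TRiC mRNA pool and CCT7 a smaller part in every CoCl2 library than in any Control library, and CCT7 a larger part in every OD library. CCT5 took 16.5% ± 0.197, 19.1% ± 0.187 and 15.1% ± 0.494, and CCT3 took 13.3% ± 0.417, 14.6% ± 0.536 and 12.5% ± 0.307. CCT4 took 9.25% ± 0.106 in Control against 7.51% ± 0.251 with CoCl2, CCT6A 12.6% ± 0.292 against 10.2% ± 0.173, CCT2 11.5% ± 0.207 against 10.7% ± 0.298, and CCT8 10.0% ± 0.183 against 9.19% ± 0.284. As a share of all counts, unscaled, the TRiC genes took 0.485% ± 0.00476 in Control, 0.400% ± 0.00104 with CoCl2 and 0.306% ± 0.00217 with OD, and the mitochondrial pair 0.206% ± 0.00436, 0.0949% ± 0.00287 and 0.118% ± 0.00468.

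**Figure D4:**
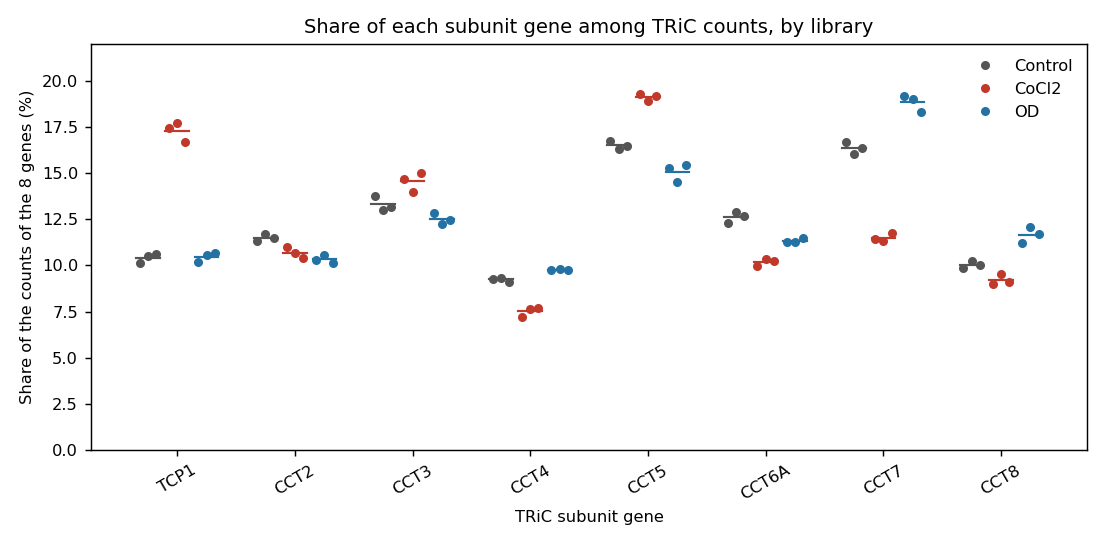
Share of each TRiC gene among the counts of the 8 TRiC genes, in percent, with 1 point per library and a bar at the mean of 3. The CoCl2 points of TCP1 lie above those of the other groups and the CoCl2 points of CCT7 below them.

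Ratios between genes within a library are likewise free of the scaling, and the ratio set by the design was compared over the 3 pairs of groups by a two-sided exact permutation test, in which 3 libraries against 3 cannot go below p = 0.1. The log2 ratio of HSPD1 to HSPE1 counts was 4.39 ± 0.0891 (SD, n = 3) in Control, 4.78 ± 0.189 with CoCl2 and 4.70 ± 0.245 with OD. HSPE1 was lower relative to HSPD1 in every CoCl2 library than in any Control library (a difference of 0.39, exact p = 0.1, adjusted 0.3 over the 3 tests), and the OD libraries overlapped Control (0.31, exact p = 0.2, adjusted 0.3) and CoCl2 (0.08, exact p = 0.6, adjusted 0.6; -0.06 without OD replicate 2). The library numbered 2 held the lowest HSPD1 to HSPE1 ratio of each group, at 4.31 in Control, 4.57 with CoCl2 and 4.42 with OD. The test did not pair libraries by number. Other ratios were picked with their values known and are given without a test. The log2 ratio of TCP1 to CCT7 was -0.65 in Control, 0.59 with CoCl2 and -0.85 with OD, so that TCP1 counts exceeded CCT7 counts with CoCl2 alone among the 3 groups. The log2 ratio of HSPD1 to TCP1 was 1.96 in Control, 0.41 with CoCl2 and 1.82 with OD, and that of HSPD1 to HSPA9, the mitochondrial HSP70 that hands proteins to the chaperonin, was 0.84, -0.75 and 0.32.

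Prefoldin delivers actin and tubulin chains to TRiC, and phosducin-like proteins act as its co-chaperones. Of 8 such genes tested, 6 rose with CoCl2, 0 fell and 2 did not pass, beside 40.4% of all genes higher and 42.8% lower. The 0 falls held by edgeR, also at an unadjusted p under 0.05, and by DESeq2. Library size alone gave 3 rises and 3 falls, beside 25.9% of all genes higher and 58.9% lower under that scaling. With OD, 1 rose, 6 fell and 1 did not pass, beside 32.3% of all genes higher and 33.3% lower. The list's medians were 0.41 and -0.71. PDCL, a phosducin-like gene, rose from 21.5 ± 1.2 CPM in Control to 131 ± 6.65 with CoCl2 (2.61, adjusted p = 5.77e-46) and was the 1 gene that rose with OD (0.44, adjusted p = 3.98e-08). PFDN1, a prefoldin subunit, rose from 81.7 ± 1.88 to 272 ± 4.45 CPM with CoCl2 (1.73, adjusted p = 2.32e-43) and stood at 78.2 ± 1.76 with OD (-0.06, adjusted p = 0.231). PFDN2 rose with CoCl2 (0.22, adjusted p = 0.000455; -0.28 with library size alone). PFDN6 stood at -0.11 with CoCl2 (adjusted p = 0.0808) but passed as lower with upper-quartile factors (-0.21, adjusted p = 0.00124), without a filter (0.00996), with at least 10 counts in every library (0.0297), and without Control replicate 2 (0.0182) or CoCl2 replicate 1 (0.0187). It fell with OD (-0.79, adjusted p = 8.54e-18), as did PFDN4 (-0.93, adjusted p = 0.00650). With CoCl2 against OD, PFDN5 was higher by 0.72 (adjusted p = 1.12e-23).

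Among 24 genes whose products are known to pass through TRiC, 14 rose, 7 fell and 3 did not pass with CoCl2 (median 0.28; 10 rose and 13 fell with library size alone), and 5 rose, 18 fell and 1 did not pass with OD (median -0.38). Over all genes, 40.4% rose and 42.8% fell with CoCl2 (25.9% and 58.9% with library size alone), and 32.3% and 33.3% with OD. ACTB, which encodes beta-actin, fell from 4687 ± 259 CPM to 2129 ± 87.9 with OD (-1.14, adjusted p = 7.62e-34), and CDC20, an activator of the anaphase-promoting complex, from 155 ± 1.05 to 53.0 ± 3.37 (-1.55, adjusted p = 8.06e-38). Tubulin genes moved unequally: TUBB3 rose with CoCl2 (5.04, adjusted p = 1.16e-44) and with OD (1.87, adjusted p = 2.58e-14) from 1.26 ± 0.180 CPM, TUBA1A rose with OD from 5.97 ± 0.574 to 43.3 ± 2.15 CPM (2.86, adjusted p = 1.61e-38), TUBA4A rose with CoCl2 (2.50, adjusted p = 1.50e-47), and TUBG1, the gamma-tubulin of centrosomes, fell (-1.47, adjusted p = 1.03e-30), as did MLST8, a subunit of the mTOR complexes (-1.22, adjusted p = 1.08e-24). With CoCl2 against OD, TUBA1C was higher (2.20, adjusted p = 2.16e-49), and TUBB2B (-2.003, adjusted p = 1.61e-44) and TUBA1A (-1.69, adjusted p = 5.14e-30) were lower. Of the 6 cofactors that act on tubulin after TRiC, TBCA, TBCB, TBCC and TBCE rose with CoCl2 (0.64, 0.89, 0.82 and 0.41), TBCE with an adjusted p of 0.0486 that any replicate left out but Control replicate 2 and CoCl2 replicate 2 put above 0.05, and at -0.10 with library size alone, and TBCD and ARL2 fell (-2.01, adjusted p = 8.64e-37, and -2.29, adjusted p = 1.32e-30). With OD 5 of the 6 fell, and TBCE did not pass (-0.36, adjusted p = 0.119).

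The R2TP module, a co-chaperone of HSP90 with a prefoldin-like partner complex, gave 2 rises and 6 falls with CoCl2 (median -0.38). Of all genes, 40.4% were higher and 42.8% lower with CoCl2. With OD the module gave 0 rises, 7 falls and 1 gene not passing (median -0.33), beside 32.3% of all genes higher and 33.3% lower. The 0 rises with OD held by edgeR, at an unadjusted p under 0.05 and by DESeq2. One of the falls with OD, PIH1D1 (-0.12, adjusted p = 0.0484), was lost under 10 other settings. Among them were DESeq2 on 9 libraries (adjusted p = 0.173) and RLE factors (0.0616). It was also lost with 5 of the 9 libraries left out in turn, and leaving 1 library out gave 5 to 7 falls. RUVBL1, one of its ATPases, fell from 103 ± 1.14 CPM to 35.8 ± 0.904 with CoCl2 (-1.53, adjusted p = 1.02e-35) and to 46.2 ± 0.895 with OD (-1.16, adjusted p = 5.00e-30), and its partner RUVBL2 fell by 0.63 with each treatment. RPAP3 (1.44, adjusted p = 4.34e-32) and PDRG1 (1.45, adjusted p = 1.47e-37) were the rises with CoCl2. Of the other chaperonin-like genes, CCT8L2 was listed at 0 in all 9 libraries. CCT6B, a paralog of CCT6A, had 6 to 11 counts in Control, 1 in each CoCl2 library and 11 to 17 with OD. BBS10 fell with CoCl2 (-1.28, adjusted p = 6.35e-15). BBS12 rose with CoCl2 from 2.50 ± 0.409 CPM (0.73, adjusted p = 0.000166), but did not pass with library size alone (0.22, adjusted p = 0.24). MKKS stood at -0.05 with CoCl2 (adjusted p = 0.551), and at -0.56 with library size alone (adjusted p = 2.06e-08). With OD, MKKS fell (-0.57, adjusted p = 6.8e-09), and BBS10, BBS12 and CCT6B did not pass.

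Of 16 other genes of folding and proteolysis in mitochondria, 8 rose, 5 fell and 3 did not pass with CoCl2 (median 0.29). Under library size alone, 6 rose and 8 fell with CoCl2, beside 25.9% of all genes higher and 58.9% lower under that scaling. With OD, 3 rose, 4 fell and 9 did not pass (median -0.01). Over all genes, 40.4% were higher and 42.8% lower with CoCl2, and 32.3% and 33.3% with OD. HSPA9, named here after its values were seen, stood at 990 ± 20.0 CPM in Control, 1964 ± 51.5 with CoCl2 and 796 ± 14.4 with OD, and was higher with CoCl2 than with OD by 1.30 on the log2 scale (adjusted p = 1.75e-39). PITRM1, a peptide-degrading protease, rose with CoCl2 (1.38, adjusted p = 7.87e-38), as did CLPX (1.27, adjusted p = 3.17e-33), and TRAP1, the mitochondrial HSP90, fell from 163 ± 4.18 to 49.7 ± 2.41 CPM (-1.71, adjusted p = 2.82e-40), as did TIMM44 (-0.50, adjusted p = 3.35e-13). With OD, LONP1, a matrix protease, rose (0.53, adjusted p = 1.59e-16), as did GRPEL2 (0.41), and TRAP1 (-0.60) and DNAJA3 (-0.46) fell. The stress regulators ATF4, DDIT3 and CEBPB rose under both treatments, by 0.88, 1.47 and 1.31 with CoCl2 and 0.52, 0.78 and 0.99 with OD, and ATF5 rose with CoCl2 (0.22, adjusted p = 0.00124; -0.29 with library size alone) and fell with OD (-0.19, adjusted p = 0.00609).

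Of 19 HSF1 targets and heat-shock factors, 18 rose and 1 fell with CoCl2 (median 1.45, 15 past the size threshold), and 2 rose, 16 fell and 1 did not pass with OD (median -0.57). The shares over all genes were 40.4% higher, 42.8% lower and 19.9% higher past the size threshold with CoCl2. With OD they were 32.3% higher and 33.3% lower. HSPA1A, the stress-inducible HSP70, rose from 32.4 ± 2.26 CPM to 4954 ± 245 with CoCl2 (7.26, adjusted p = 1.14e-71), and HSPA1B, a near-identical copy between which and HSPA1A reads could be split, by 6.51. FKBP4 was the 1 gene that fell with CoCl2 (-0.14, adjusted p = 0.00199), and with OD CHORDC1 (-1.23, adjusted p = 1.82e-34) and FKBP4 (-1.21, adjusted p = 5.02e-35) fell most, while BAG3 rose (0.34, adjusted p = 3.50e-08) and DNAJB4 rose (0.50, adjusted p = 0.00374; 0.36, adjusted p = 0.0562 without Control replicate 3). With CoCl2 against OD all 19 were higher (median 2.18), as were 8 of 8 prefoldin and phosducin-like genes (median 1.12). Over all genes, 40.2% were higher and 43.2% lower in that comparison. The 8 TRiC medians of 0.11 with CoCl2 and -0.74 with OD stood beside list medians of 1.45 and -0.57, and HSPD1 at -0.60 and -0.83.

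**Figure D5:**
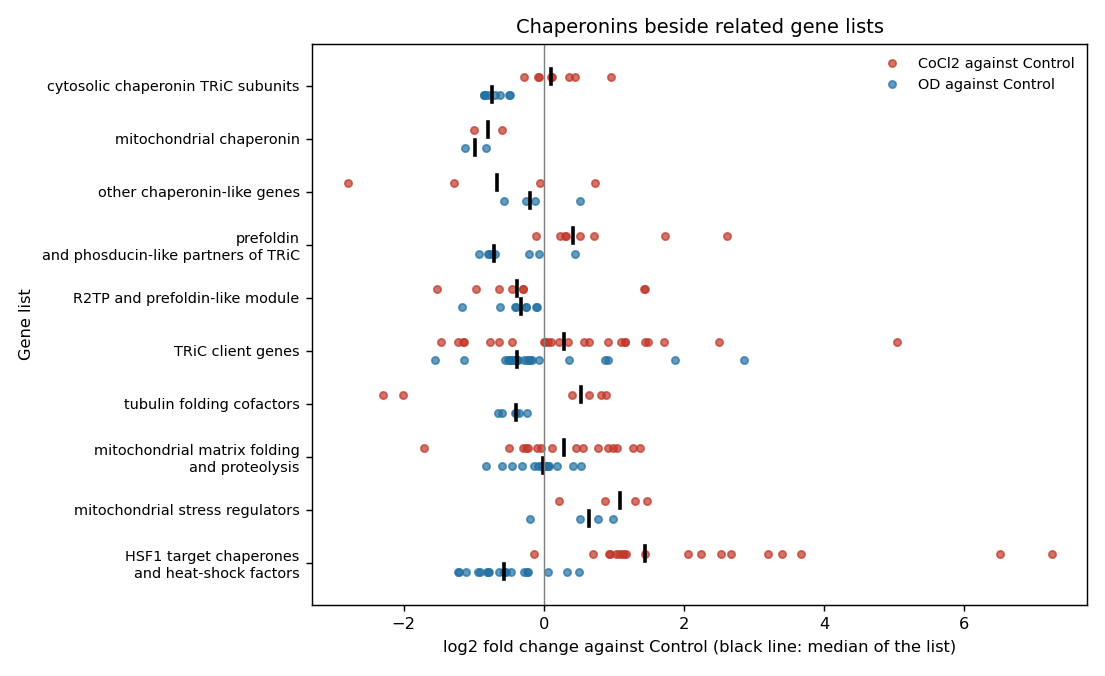
Log2 fold changes of the chaperonin genes and of each list of related genes, with CoCl2 and with OD against Control, 1 point per gene tested and a bar at the list median. The list of HSF1 targets reaches 7.26 with CoCl2 at HSPA1A, and the mitochondrial chaperonin lies below 0 under both treatments.

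The genes whose levels followed the chaperonins most closely were found by the Pearson correlation of log2 CPM over the 9 libraries, among 9020 genes averaging 10 CPM or more, as a description in which 3 group means set most of the value. Closest to the mean of the 8 TRiC genes were NOP16, a nucleolar protein, UBE2C, a ubiquitin-conjugating enzyme of mitosis, FLNA, the actin-binding filamin A, PKP2 and AXIN2, all with r of 0.996 to 0.997, and 343 genes were above 0.95. Closest to HSPD1 were RPIA, an enzyme of the pentose phosphate pathway, SYNCRIP, an RNA-binding protein, GSTA2, LYAR and WDR4, with r of 0.993 to 0.995, and 206 genes were above 0.95. Among the members, CCT3 and CCT5 correlated at 0.997. HSPD1 correlated with CCT7 at 0.959, with HSPE1 at 0.944, with CCT4 at 0.781, with CCT6A at 0.773 and with the other TRiC genes at 0.187 (TCP1) to 0.632 (CCT2), and TCP1 with CCT7 at 0.339.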

How the data were processed

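Messenger RNA of 9 uCaco-2 libraries was measured. Per the labels and the study's methods, the authors checked reads with FastQC 0.11.9, trimmed them with cutadapt 2.10, mapped them to GRCh38.p13 with STAR 2.7.5b, counted them on GENCODE release 34 and deposited raw counts per gene symbol. The counting tool, its strand setting and its treatment of shared reads are not given in the sources used here. Opposite-strand overlaps (19.3% of TCP1, 19.2% of CCT4, 52.7% of CCT5 and 4.58% of CCT8 transcript bases) and copies are therefore uncertain. Pseudogene rows held 1.56% to 4.11% of the HSPE1 count, 1.10% to 3.16% of the CCT6A count and under 0.6% of the others.

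With edgeR 4.0.16 (R 4.3.3), a model (TMM factors, its default expression filter, robust quasi-likelihood fit over 9 libraries with 1 mean per group) gave log2 fold changes, standard errors and Benjamini-Hochberg adjusted p-values over 15944 symbols. Transcript lengths and coordinates came from GENCODE 44. On simulated counts of 15404 genes, the fit of CoCl2 against Control recovered 200 of 200 changed genes and called 2 unchanged ones. The planted changes all exceeded the size threshold of 1 and were balanced between rises and falls. The simulation therefore did not test smaller changes, such as those of most chaperonin genes, or the scaling when many genes change. At this depth, standard errors were 0.038 to 0.041 on the log2 scale, and 0.13 to 0.14 for HSPE1. Alternatives were library size alone, other factors (upper quartile or RLE), no filter, at least 10 counts in every library, fits on 6 libraries, DESeq2 1.42.0, the replicate block, thinning, added pseudogene rows (the CCT6A ones matched after the symbol rule had missed them) and each replicate left out. The members and lists were chosen with earlier results of these data known. Genes of each list were named if among the 2 highest or 2 lowest changes of a comparison at a mean of at least 10 CPM, or in a list of 6 or fewer, and the text gives their values mainly for the comparisons with Control. HSPA9 with CoCl2 and with OD was named beyond this rule.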

Additional observations from a re-analysis of the deposited data

How the results depend on the processing

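Of 4094 alternative values, 3912 kept their direction and side of the adjusted p threshold (counts of genes: within 1.5 times). For single genes the size threshold did not enter. With CoCl2 against Control, TCP1 with RLE factors (1.01) and HSPD1 with library size alone (-1.10) crossed it and were counted as kept. With OD all 10 chaperonin genes were lower under each alternative. For CoCl2 against Control, library size alone left 1 chaperonin gene higher and 8 lower, 2 of them past the size threshold, with a median of -0.49 (CCT2 -0.39, CCT3 -0.15, CCT5 -0.067, CCT8 -0.41, PFDN2 -0.28, TBCE -0.10, ATF5 -0.29). Over all genes 25.9% were higher and 58.9% lower under that scaling, with a median of -0.55. Leaving the heat-shock list out of the library size gave the same 3 chaperonin counts, 1, 8 and 2, with a median of -0.45 (CCT2 -0.34, CCT3 -0.10, CCT5 -0.022, CCT8 -0.36, PFDN2 -0.24, TBCE -0.053, ATF5 -0.24). Over all genes 27.4% were then higher and 57.6% lower, with a median of -0.51. The chaperonin median was -0.087 with upper-quartile factors (-0.15 over all genes), -0.053 without a filter (0.12), -0.015 with at least 10 counts in every library (-0.037) and -0.00025 in the fit on its own 6 libraries (-0.041), each with 1 chaperonin gene past the size threshold on the lower side. Upper-quartile factors and no filter each gave 3 chaperonin genes higher, beside 37.3% and 20.6% of the symbols tested in each. RLE factors put 1 chaperonin gene past the size threshold on the higher side. For CoCl2 against OD, library size alone gave 5 chaperonin genes higher, 3 lower and 1 past the size threshold (CCT7 -0.33, HSPD1 -0.31, HSPE1 -0.41, MKKS -0.028, ATF5 -0.14, CEBPB -0.23, ATF4 -0.19), and without the heat-shock list 2 were lower and 1 past the threshold (CCT7 -0.28, HSPD1 -0.26, HSPE1 -0.36, ATF5 -0.086, CEBPB -0.18, ATF4 -0.14). Over all genes 23.7% were higher and 61.5% lower with library size alone, and 25.2% and 59.8% without the heat-shock list. The cause was not tested. With 1 library left out, 0 to 1 genes were past the size threshold on the lower side with CoCl2 (HSPE1, without Control replicate 3 or CoCl2 replicate 2), and the HSPD1 to HSPE1 ratio of CoCl2 against OD ranged from -0.055 to 0.19, negative without OD replicate 2.

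Over all genes, same-numbered libraries deviated together by r of -0.0049 to 0.038 (median 0.021), with 0 of 9 pairs above 0.1. The median for libraries of different numbers was -0.0095. Deviations were taken from each group's mean, so that value offsets the same-numbered ones by construction and is no separate reference. A correlation over all genes cannot exclude a deviation shared by a few genes. HSPE1 was highest in the library numbered 2 of each group (90.9, 49.8 and 45.1 CPM), so whether the numbers pair the samples is left undecided. With the replicate number as a block, CCT4 passed with CoCl2 (-0.07, adjusted p = 0.0439) and HSPE1 passed for CoCl2 against OD (0.15, adjusted p = 0.0200), and no other chaperonin call changed. The standard error of HSPE1 for that comparison was 0.14, and 0.060 with the block. For CoCl2 against Control it was 0.13, and 0.056 with the block. At 1 to 17 counts per library, CCT6B was limited by depth.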
